A study of Drosophila melanogaster with 48 samples.

Results

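The genes described here encode the proteins of the mitochondrial ribosome. They were taken as every gene of the count table whose FlyBase symbol begins with mRpL (large subunit, 47 genes) or mRpS (small subunit, 26 genes), which gave 73 genes out of 13957. Expression had been measured by RNA-seq in the heads of living *D. melanogaster* males that were 5 to 7 days old, with 60 whole heads in each library. The stressed flies had eaten food with 75 mM menadione sodium bisulfite (MSB), a quinone that produces reactive oxygen species by redox cycling, and the control flies had eaten food without it. The lines were M12D3, M12N3, M9D3, and M9N1 from Germany, C2D3 and C2N1 from Cyprus, KL01 and KL02 from Malaysia, and ZI197, ZI254, ZI273, and ZI418 from Zambia. M12D3, M9D3, C2D3, and KL01 carried a deletion in the 3′ UTR of the metallothionein gene *MtnA*, and the other 8 lines carried the nondeletion allele. Within M12, M9, and C2 the deletion and the nondeletion line were nearly isogenic and came from 1 wild-caught female, so that such a pair stands for 1 origin. KL01 and KL02 were separate isofemale lines and differ across the genome. Flies from Zambia spent 18 to 20 h on the food and all others 24 h, so that range and exposure time cannot be told apart.

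The mitochondrial ribosome translates the few proteins that the mitochondrial genome still encodes, all of them parts of the machinery of oxidative phosphorylation. Its rRNAs come from the mitochondrial genome, while all of its proteins are encoded in the nucleus, made by cytosolic ribosomes, and imported. The small subunit binds the mRNA and reads its codons, and the large subunit forms the peptide bond and holds the exit tunnel. About as many of the proteins descend from the bacterial ancestor as were added in mitochondria, and the number in a symbol follows the bacterial protein only for the lower numbers. In *D. melanogaster*, mutants of the small subunit gene *tko* are known for their bang sensitivity and mutants of *bonsai*, another gene of this subunit, for their poor growth. These 2 genes carry older names and therefore lie outside the 73.

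Of 48 libraries, 47 were used (23 stress and 24 control). Each line had 2 control libraries and 1 to 3 stress libraries, and M9N1, ZI197, and ZI418 had 1 stress library each, whose spread was taken to be that of the rest of the fit. Total counts ranged from 29414147 to 53939743 in the stress libraries (median 40361280) and from 27223075 to 63358011 in the control libraries (median 40920023). The study left out an M9N1 stress library, which was taken here to be the one that lay 55.0 units from the mean of the other stress libraries in a principal component analysis, against 7.56 for the other M9N1 stress library and at most 16.4 for the stress libraries of the other lines. The head markers were present in every library. The summed level of the 5 photoreceptor markers was 27350 to 67320 CPM in stress and 31820 to 57010 CPM in control libraries (CPM, counts scaled to 1 common library size with the TMM method, per 1000000 counts), and that of the 5 neuron markers was 2656 to 4160 CPM in stress and 2926 to 4227 CPM in control libraries. The 4 testis markers summed to at most 1.10 CPM in stress and 0.534 CPM in control libraries, at or near 0.

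Levels could be compared between genes only per length, as CPM per kb of exon length in the table. *mRpS5*, whose bacterial counterpart lines the mRNA entry channel, had by far the highest level, at 132 ± 11.3 CPM per kb in stress (SD, n = 23) and 143 ± 21 in control libraries (SD, n = 24). The annotation gives it 1682 bases of exons against 1422 in the table, which would lower this value without changing its rank. *mRpS9*, counterpart of a protein whose tail reaches the decoding site in bacteria, followed with 65.5 ± 6.3 CPM per kb in stress and 61.5 ± 7.59 in control libraries, and *mRpL28* with 48 ± 4.09 in stress and 50.7 ± 7.22 in control libraries. The control libraries of *mRpS9* and *mRpL28* overlapped on this scale, while those of *mRpS5* lay above both. The lowest levels among the tested genes were those of *mRpL21*, with 8.08 ± 1.03 CPM per kb in stress and 8.78 ± 1.37 in control libraries, and of *mRpS18B*, with 9.10 ± 1.1 in stress and 9.47 ± 0.877 in control libraries. *mRpL53* had 2 counts in all 48 libraries and was the only gene of the 73 that failed the filter on low counts. All of its 829 exon bases lie within exons of *CG33155* on the same strand, which had 115487 counts, or of *AGO1* on the opposite strand, which had 700074 counts, so that its own transcript cannot be told apart in this table.

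To find out how these genes answered MSB, all stress libraries were compared with all control libraries. Treatment was the only term, so that libraries of the same line counted as independent. The p-values of this test therefore do not measure the spread among lines. Most of the genes were slightly lower under stress. Of 72 genes tested, 39 were lower and 2 were higher at an adjusted p below 0.05 (edgeR quasi-likelihood test, Benjamini-Hochberg adjustment over 10514 genes), while 26.2% of all tested genes were lower and 27.3% were higher. The median log2 fold change (log2FC, stress over control) of the 72 was -0.14, against 0.01 for all tested genes, and 63 of the 72 were below 0, against 49.0% of all genes. In the large subunit 28 of 46 genes were lower and 1 was higher (median log2FC -0.14), and in the small subunit 11 of 26 were lower and 1 was higher (median log2FC -0.10). With the 4 Zambian lines left out, 23 of the 72 were lower and 2 were higher, with a median log2FC of -0.10. With line as a block, 54 were lower (37 in the large and 17 in the small subunit) and 3 were higher, with a median log2FC of -0.16. The shares of 26.2% and 27.3% belong to the fit of treatment alone over all lines. They cannot be set beside the counts without the Zambian lines or with line as a block. The shares of all genes in those fits are not given here. The change in these counts therefore cannot be read as a result about the family.

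**Figure D1:**
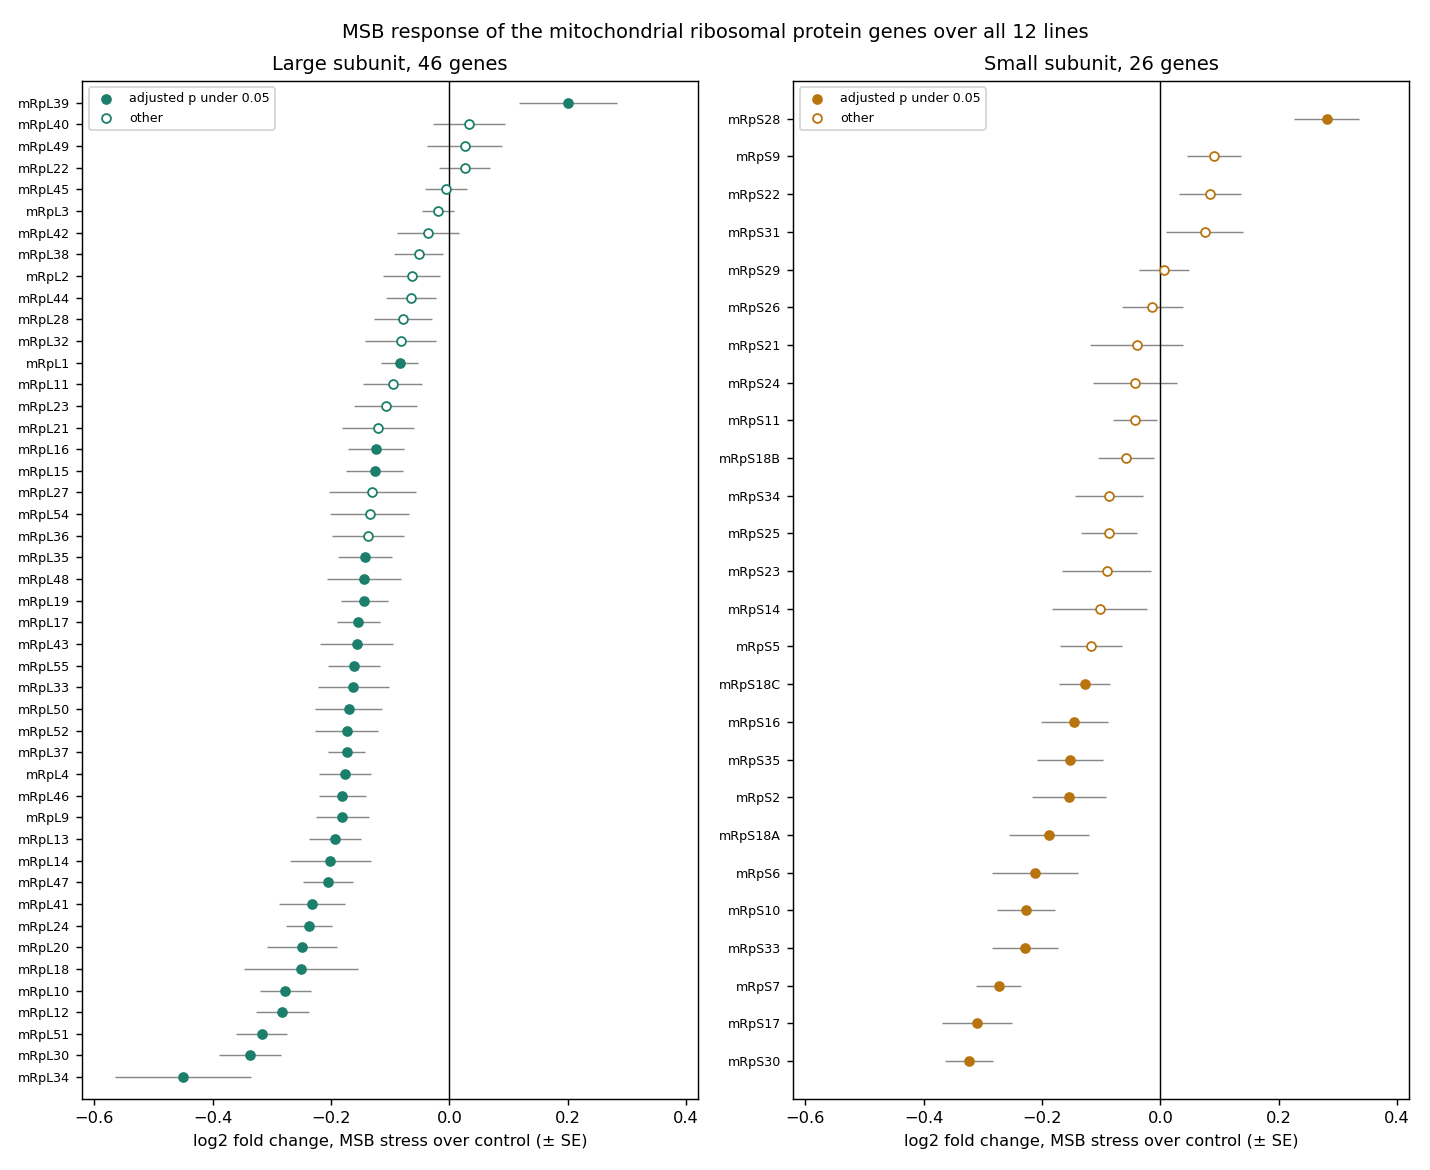
Log2 fold change of the 72 tested genes over all 12 lines (x axis, MSB stress over control, with standard error), sorted within the large subunit (left, 46 genes) and the small subunit (right, 26 genes). Filled points passed an adjusted p of 0.05, and 39 of the 41 filled points lie left of 0.

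In bulk heads, fewer cells of a type and less RNA per cell cannot be told apart, and markers of several cell types moved with the treatment. Of the fat body markers, 3 of 4 were lower (median log2FC -1.28), with summed levels of 846 to 5234 CPM in stress and 3026 to 15670 CPM in control libraries. Of the muscle markers 3 of 5 were lower (median log2FC -0.26, summed levels 1459 to 2710 CPM in stress and 1407 to 3602 CPM in control libraries). Of the glia markers 2 of 4 were lower, with summed levels of 1226 to 2921 CPM in stress and 1597 to 3530 CPM in control libraries. All 3 hemocyte markers were lower (98.1 to 237 CPM in stress and 140 to 403 CPM in control libraries), and both gut markers that were tested were higher (16.5 to 364 CPM in stress and 5.60 to 147 CPM in control libraries, summed over 4 markers). None of the 5 neuron markers and 1 of the 5 photoreceptor markers, *norpA*, passed the test. In ZI197 the median log2FC of the fat body markers was -0.02 while that of the mitochondrial ribosomal protein genes was -0.34, and in M12D3 these medians were -1.86 and -0.03. In the other 10 lines the fat body median lay between -1.54 and -0.90. ZI197 had 1 stress library, and the part of the fat body or of any other cell type in the decrease was not tested.

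The smallest adjusted p belonged to *mRpS30*, which lies on the X chromosome from 15786047 to 15788288 on the plus strand (Release 6 assembly, as all positions here). Its stress libraries ran from 30.7 through a median of 37.6 to 45.6 CPM, and its control libraries from 39.3 through 46.6 to 53.6 CPM. The groups overlapped over all lines, but within each of the 12 lines every stress library was below every control library. The log2FC of *mRpS30* was -0.32 ± 0.04 (SE, adjusted p = 2.36e-09). In mammals the homolog of this protein sits in the large subunit in spite of its name. It was called lower in 6 lines (M12D3, M9D3, M9N1, C2D3, KL01, and ZI273), more than any other gene of the family.

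Both proteins that make up the stalk, the flexible arm of the large subunit that recruits elongation factors, were among the genes with the smallest adjusted p. *mRpL12* (3L, 8956791 to 8957584), which forms the arm, had 16.2 to 25.5 CPM in stress (median 22.5) and 20.2 to 32.3 CPM in control libraries (median 26.4), with a log2FC of -0.28 ± 0.04 (adjusted p = 5.42e-07). *mRpL10* (2L, 203779 to 204782), which anchors the arm, had 17.7 to 27.4 CPM (median 22.5) in stress and 21.9 to 30.7 CPM (median 27.5) in control libraries, with a log2FC of -0.28 ± 0.04 (adjusted p = 3.59e-07). In both genes the groups overlapped. *mRpL10* was below 0 in all 12 lines and *mRpL12* in 11 of 12. *mRpL11*, at the base of the stalk and looked up after the values were seen, averaged 8.84 ± 0.909 CPM in stress and 9.45 ± 1.22 CPM in control libraries (SD, n = 23 and 24) and did not pass the edgeR test (log2FC -0.10 ± 0.05, adjusted p = 0.104).

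Several rRNA-binding proteins of the bacterial type had decreases of the same order. *mRpS7* (2L, 10386662 to 10387652), of the head of the small subunit, had 22.5 to 31.6 CPM in stress (median 28.9) and 29.4 to 40.2 CPM in control libraries (median 34.3), with a log2FC of -0.27 ± 0.04 (adjusted p = 2.20e-08). *mRpS17* had 9.71 to 16.7 CPM in stress (median 13.4) and 11.1 to 22.2 CPM in control libraries (median 16.5), with a log2FC of -0.31 ± 0.06 (adjusted p = 1.73e-05). Both small subunit genes were below 0 in all 12 lines. *mRpL24*, counterpart of a protein that starts the assembly of the bacterial large subunit, had 23.6 to 32.2 CPM in stress (median 27.0) and 24.9 to 36.3 CPM in control libraries (median 33.1), and its log2FC was -0.24 ± 0.04 (adjusted p = 1.44e-06). *mRpL30* (X, 4647871 to 4648646) had 15 to 23.5 CPM in stress (median 20.2) and 19.8 to 32.6 CPM in control libraries (median 24.7), with a log2FC of -0.34 ± 0.05 (adjusted p = 2.99e-07). *mRpL30* was below 0 in every line, and *mRpL24* in every line but KL01. The largest decrease was that of *mRpL34*, one of the shortest genes at 327 bases of exons. It had 1.95 to 5.17 CPM in stress (median 2.89) and 2.20 to 7.41 CPM in control libraries (median 3.99), with a log2FC of -0.45 ± 0.12 (adjusted p = 9.05e-04). Its groups overlapped over most of their range, and its SE was the largest of the genes named. Of its exon bases 9.79% overlap *CG8414* on the opposite strand, which was higher under stress (log2FC 0.52).

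Among the proteins that were added in mitochondria, *mRpL51* (2L, 8516753 to 8517380) had 8.12 to 12.7 CPM in stress (median 10.4) and 10.8 to 14.6 CPM in control libraries (median 13), with a log2FC of -0.32 ± 0.04 (adjusted p = 2.40e-08). *mRpL37* had 15.1 to 19.9 CPM in stress (median 17.4) and 17.2 to 23 CPM in control libraries (median 19.7), with a log2FC of -0.17 ± 0.03 (adjusted p = 5.70e-06). Both were below 0 in all 12 lines, and so were 7 others, *mRpL10*, *mRpL18*, *mRpL30*, *mRpS7*, *mRpS17*, *mRpS30*, and *mRpS33*. Neither decrease came with a separation of the groups over all lines.

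The genes that were higher under stress were *mRpS28* and *mRpL39*. *mRpS28*, a small subunit gene, had 17.0 to 27.0 CPM in stress (median 22.1) and 13.5 to 25.0 CPM in control libraries (median 17.5), with a log2FC of 0.28 ± 0.05 (adjusted p = 2.23e-05). It was the only gene of the 72 above 0 in all 12 lines, between 0.02 in M9D3 and 0.60 in ZI418. *mRpL39*, a large subunit gene (3L, 14997981 to 14999666), had 16.9 to 33.3 CPM in stress (median 20.4) and 15 to 28.3 CPM in control libraries (median 18.6), with a log2FC of 0.20 ± 0.08 (adjusted p = 0.0371). The ranges of *mRpL39* were wide because ZI254, ZI273, and ZI418 had high levels under either treatment. Its call was lost in 16 of 47 fits that left out 1 library, with an adjusted p of up to 0.0734 when ZI254 stress replicate 3 was left out, and it was also lost without a filter on low counts (adjusted p = 0.0817).

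**Figure D2:**
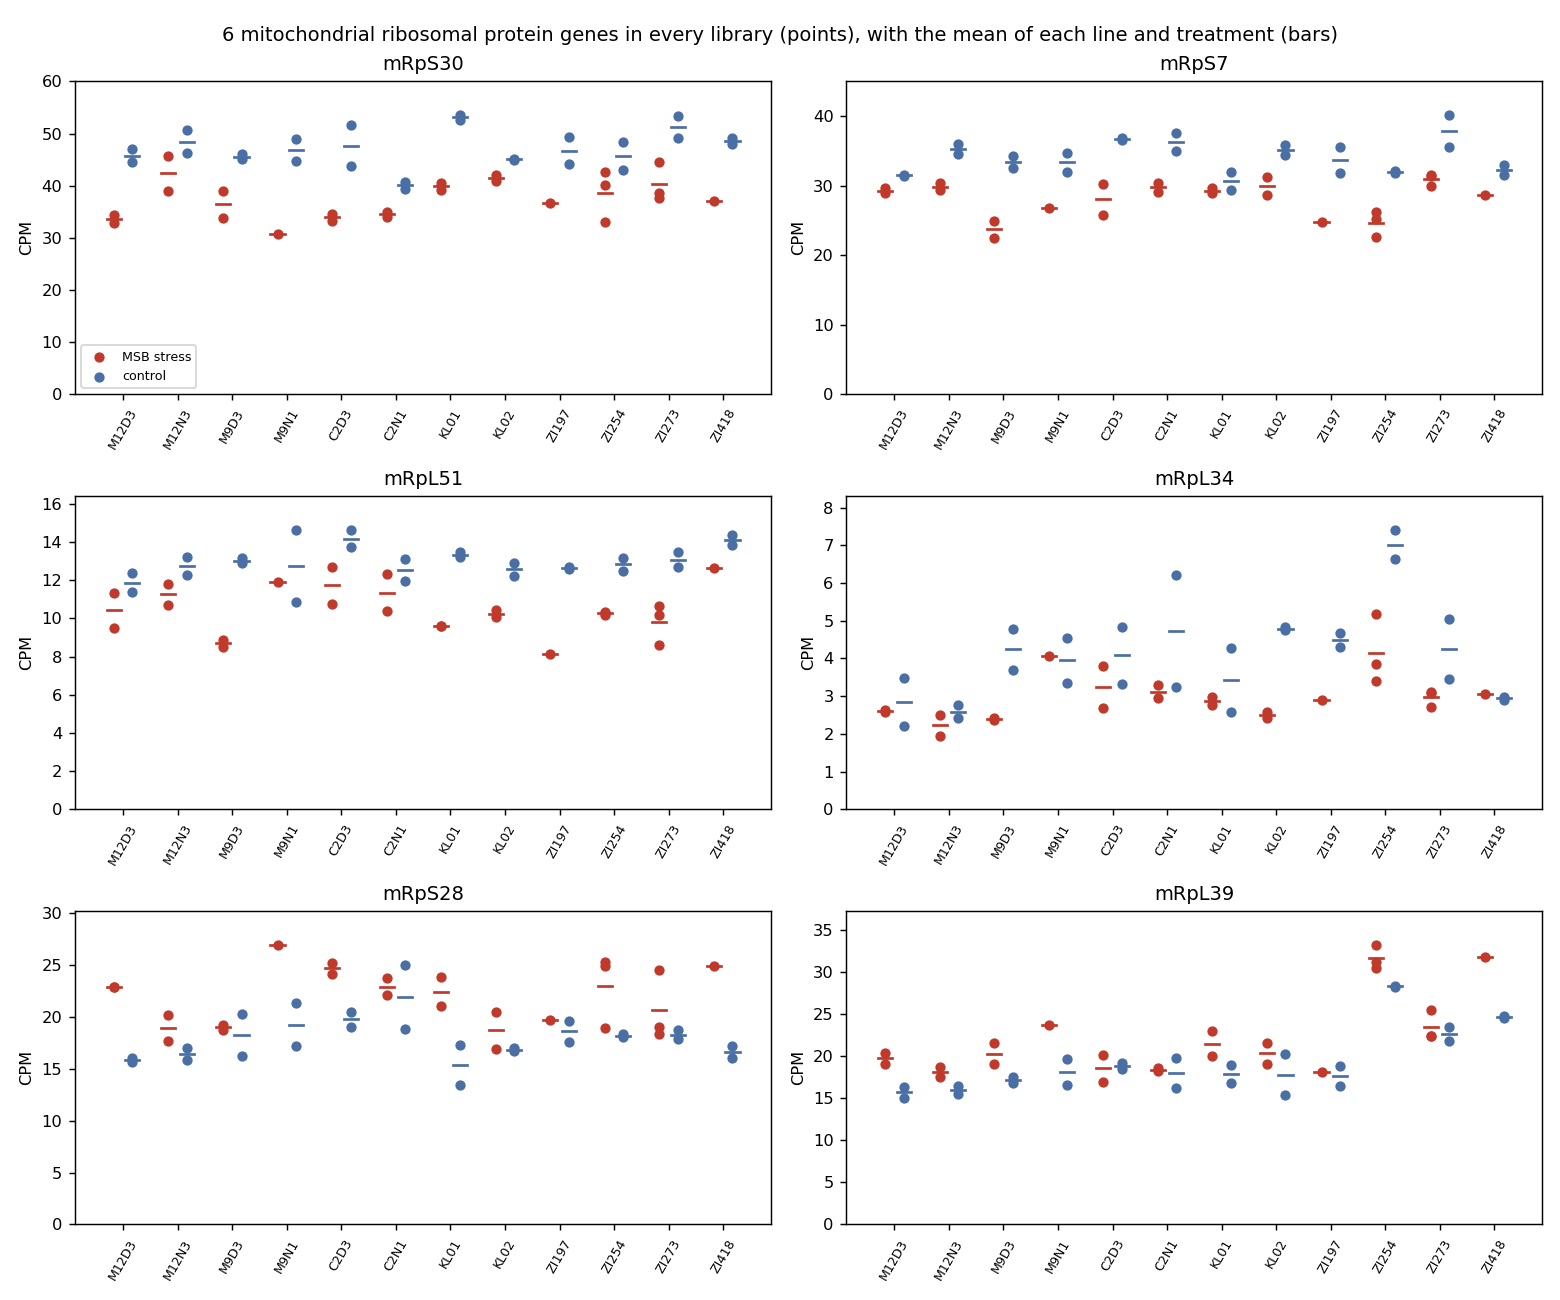
Level of 6 genes in CPM (y axis, from 0) in every library of the 12 lines (x axis). Points are libraries (MSB stress left of control in each line) and bars are the means. The stress points of *mRpS30* are below the control points in each line, while those of *mRpS28* have the higher mean in each line.

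The groups into which the symbols divide differed in how many genes were lower. Symbol numbers up to 36 in the large and up to 21 in the small subunit follow bacterial proteins. Of these genes, 26 of 42 were lower and 0 were higher (median log2FC -0.14). Of the genes with higher numbers, 13 of 30 were lower and 2 were higher (median log2FC -0.09), with 10 of 18 lower in the large and 3 of 12 (25%) lower in the small subunit, a share close to the 26.2% of all tested genes. A few of the higher numbers belong to proteins of bacterial descent in humans, among them the homologs of *mRpS24* and *mRpS28*, so that the groups are set by name only. The control level made little difference to these counts, with 19 of 36 genes lower above the median level per kb and 20 of 36 lower at or below it.

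Because the counting program and its use of strand are not given in the sources used here, reads of overlapping genes may be shared. Of the 73 genes, 43 (58.9%) overlap exons of another gene of the table, against 28.5% of all genes. In 40 of these the overlap is with genes on the opposite strand only, and in *mRpL13*, *mRpS14*, and *mRpL53* a gene on the same strand overlaps. Among the tested genes 23 of 42 with an overlap were lower and 2 were higher, and of the 30 without an overlap 16 were lower and 0 were higher. The shares that were lower, 54.8% with and 53.3% without an overlap, were close. The overlap covers 48% of the exons of *mRpS21* (with *CG8870*, mean 1.36 CPM in stress and 0.850 CPM in control libraries) and 55.3% of those of *mRpS24* (with *TBC1d7*, mean 9.54 CPM in stress and 9.95 CPM in control libraries), so that the values of *mRpS24* in particular are uncertain. *mRpS28* overlaps *CG10927* by 6.66% of its exons and *mRpL39* overlaps *Zip71B* by 0.264%. *CG10927* had a mean of 2.15 CPM in stress and 2.17 CPM in control libraries, far below *mRpS28*, and *Zip71B* was lower under stress (log2FC -0.32).

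The response was not the same size in every line. The median log2FC of the 72 genes lay between -0.16 and -0.34 in 7 lines and between -0.03 and 0.03 in the other 5. It was -0.34 in ZI197, -0.31 in M9D3, -0.27 in C2D3, -0.24 in C2N1, -0.18 in ZI273, -0.17 in ZI254, and -0.16 in KL02. It was -0.03 in M12D3, -0.01 in M9N1, 0.00 in M12N3, 0.01 in ZI418, and 0.03 in KL01. The place of M9N1 depended on its libraries. Its median was -0.29, against 0.15 for all genes, when the other M9N1 stress library was left out instead, and -0.12 with all 48 libraries, and it was 0.11 without control replicate 1 and -0.10 without control replicate 2. The medians of all tested genes stayed between -0.04 and 0.03 in each line. The number of the 72 genes below 0 was 70 in C2D3 and in C2N1, 69 in M9D3, 68 in ZI197, 64 in ZI273, 63 in ZI254, and 61 in KL02, and it was 30 to 40 in the other 5 lines. Deletion and nondeletion lines, and Zambian and other lines, stood in either group.

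Counts of called genes in a line rest on 3 to 5 libraries. In M9D3, 23 of 72 genes were lower and 0 higher, while 16.5% of all genes were lower and 16.5% higher. The called genes included *mRpL34* (log2FC -0.86), *mRpL51* (-0.62), *mRpL12* (-0.61), and *mRpL30* (-0.59). This count was 4 without control replicate 1 or without stress replicate 1, and 11 without either of the others. In M9N1, the nondeletion line of the same background, 1 gene was lower (*mRpS30*, log2FC -0.63) and 1 was higher (*mRpS31*, 0.35), against 11.6% of all genes lower and 15.8% higher. In M12D3, 2 genes were lower (*mRpS30* and *mRpL12*) and 3 were higher (*mRpS28*, *mRpS21*, and *mRpL39*), against 18.1% and 16.3% of all genes, and in M12N3 0 were lower and 0 higher, against 8.52% and 4.08%. Without 1 of the 4 M12D3 libraries, 0 to 2 genes were lower and 1 was higher in M12D3. The gap between M9D3 and M9N1 depended on the M9N1 library. With the other M9N1 stress library left out, only the library far from the rest stood for M9N1 stress. The medians were then -0.29 in M9D3 and -0.29 in M9N1, against 0.00 and 0.15 for all genes. With all 48 libraries the medians were -0.25 in M9D3 and -0.12 in M9N1. In that setting 1 gene of the family was lower in M9D3 and 2 in M9N1. Of all 11213 genes, 1476 in M9D3 and 2645 in M9N1 were called in either direction.

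In C2D3 only *mRpS30* was lower (log2FC -0.49) and 0 genes were higher, against 5.93% of all genes lower and 8.8% higher, and in C2N1 0 were lower and 0 higher, against 3.92% and 5.3%. At an unadjusted p below 0.05 the edgeR test gave 14 genes in C2D3 and 15 in C2N1. DESeq2 called 2 genes lower in C2D3 and 0 in C2N1. The number of calls in the C2 lines depended on the fit, since 1 fit over all lines called 20 genes lower in C2D3 and 14 in C2N1. Without C2N1 control replicate 1 or 2 the fit within the background called 9 or 4 genes lower in C2D3, and without C2N1 control replicate 2 it called 4 in C2N1. The median of the C2 lines without their own control replicate 1 was -0.18 in C2D3 and -0.09 in C2N1.

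In KL01, 2 genes were lower (*mRpL51*, log2FC -0.48, and *mRpS30*, -0.42) and 1 was higher (*mRpS28*, 0.54), against 11.3% and 13.6% of all genes. Without KL01 control replicate 1 these numbers were 4 lower and 11 higher, and the median moved to 0.17. In KL02 only *mRpL34* was lower (log2FC -0.97) and 0 genes were higher, against 5.62% and 2.66% of all genes. The call was lost when any of the 4 KL02 libraries was left out, while 4 genes were lower without KL01 control replicate 1, 2 without KL01 control replicate 2, and 6 in 1 fit over all lines.

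Of the Zambian lines, ZI273 had 15 genes lower, ZI254 had 12, ZI197 had 12, and ZI418 had 1. The share of all genes that were lower was 13% in ZI273, 8.38% in ZI254, 5.21% in ZI197, and 5.74% in ZI418. *mRpL51*, *mRpL30*, *mRpS7*, *mRpS17*, *mRpL17*, and *mRpL20* were called lower in each of ZI197, ZI254, and ZI273, with the largest single decrease in *mRpL48* of ZI197 (log2FC -0.77). The only gene of the family called higher was *mRpL39* in ZI418 (log2FC 0.38), while 12.7% of all genes were higher in ZI273, 8.57% in ZI254, 8.81% in ZI197, and 10.1% in ZI418. *mRpS17* was the only gene lower in ZI418 (log2FC -0.37). Leaving out 1 library of the line gave 5 to 11 genes lower in ZI273, 1 to 8 in ZI254 (1 without control replicate 1), 7 to 10 in ZI197, and 0 in ZI418.

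**Figure D3:**
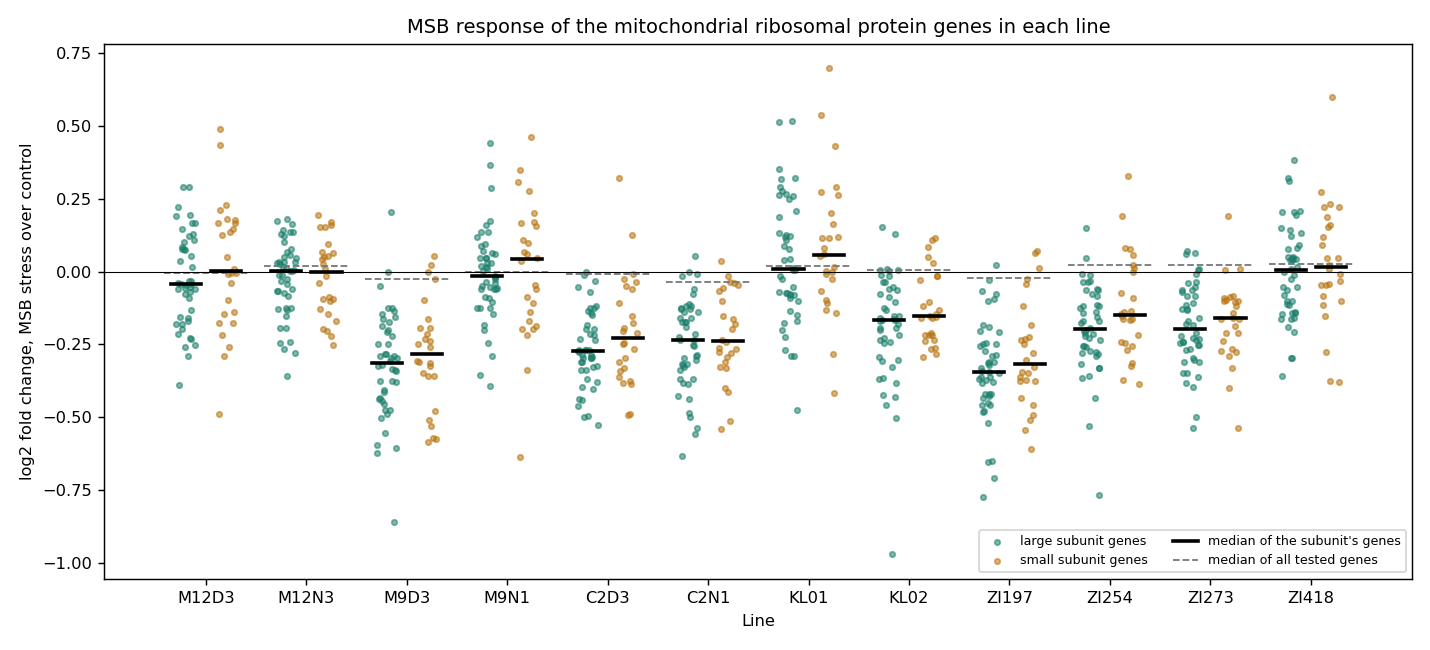
Log2 fold change of each of the 72 genes (y axis, MSB stress over control) in each of the 12 lines (x axis), with the large subunit left of the small subunit. Points are genes, black bars are the medians of a subunit, and dashed lines are the medians of all tested genes. The black bars lie between -0.34 and -0.15 in M9D3, C2D3, C2N1, KL02, ZI197, ZI254, and ZI273 and between -0.04 and 0.06 in the other 5 lines.

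The medians of the 2 subunits were close to each other in every line. They were -0.31 in the large and -0.28 in the small subunit in M9D3, -0.34 and -0.32 in ZI197, -0.27 and -0.23 in C2D3, and -0.23 and -0.24 in C2N1. The largest gap was in M9N1, with -0.02 in the large and 0.04 in the small subunit. No test was made between the subunits, since the genes of a subunit are not replicates.

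The summed level of all 73 genes and the balance between the subunits were also taken for each library. The sum was 1353 to 1698 CPM in stress (median 1528) and 1456 to 1885 CPM in control libraries (median 1662). The mean sum was lower under stress in 9 of 12 lines, and in these 9 lines every stress library was below every control library. In M9D3 the stress mean was 85.1% of the control mean, in C2D3 85.6%, and in ZI197 83.3%, and it was 104% in M12D3, 103% in KL01, and 102% in M9N1. Among the 9 lines the decrease was small in M12N3 (98.4%) and in ZI418 (99.8%), and ZI197 and ZI418 had 1 stress library each. The log2 ratio of the summed CPM per kb, large over small subunit, was 0.50 ± 0.04 in stress (SD, n = 23) and 0.56 ± 0.04 in control libraries (SD, n = 24), a difference of -0.06. It was lower under stress in 11 of 12 lines, M12N3 being the exception, and in 10 lines every stress library was below every control library. Of these 10, M9N1, ZI197, and ZI418 had 1 stress library each, and the shift in ZI418 was only -0.01. The largest shift was -0.10 in M12D3, and the KL01 control libraries, at 0.59 and 0.43, stood farther apart than those of any other line.

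The direction of this ratio depended on how a subunit was summarised. With the median gene of each subunit in place of the sum, the log2 ratio was 0.09 ± 0.07 in stress (SD, n = 23) and 0.04 ± 0.08 in control libraries (SD, n = 24), so that the difference was 0.05 and of the opposite sign. Both differences are close to the SD between libraries. Without *mRpS5*, the gene with the highest level, the difference of the summed ratio was -0.06, and with *mRpS30* and *mRpS18A* counted as large subunit genes, as in the mammalian ribosome, it was -0.07.

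**Figure D4:**
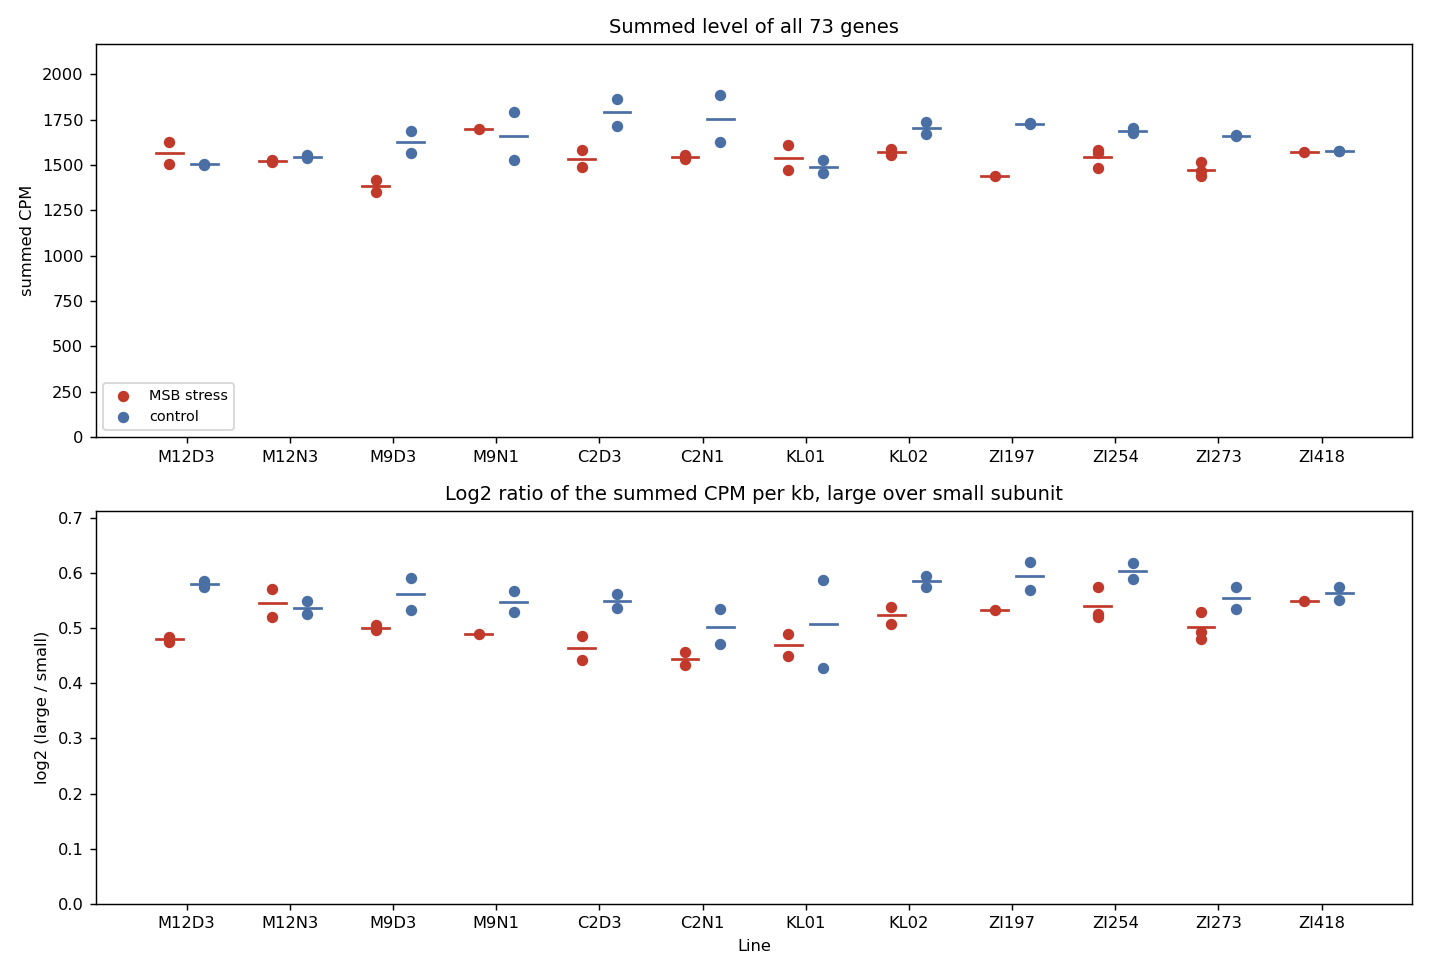
Summed level of all 73 genes in CPM (upper panel) and log2 ratio of the summed CPM per kb, large over small subunit (lower panel), in every library of the 12 lines (x axis). Points are libraries, with MSB stress left of control in each line, and bars are means. The stress ratios are all below the control ratios in 10 of 12 lines.

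Among control flies the lines differed in many of these genes. Of the 72 tested genes 37 (24 of 46 in the large and 13 of 26 in the small subunit) passed the test for any difference among the 12 lines, against 57.9% of all genes. The median range between the highest and the lowest line was 0.52 on the log2 scale (with 0.1 added to the CPM), against 0.75 for all tested genes. KL01 was the lowest line in 30 of the 72 genes (41.7%), against 11.2% of all tested genes, and C2D3 was the highest in 17, while it was the highest in 8.94% of all tested genes. By these values the family was not more variable among lines than all tested genes, which were not matched to it in level. Its lowest values gathered in KL01, whose control replicate 2 had the lowest median level of all 47 libraries (3.77 on the log2 CPM scale).

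A single line carried the range in several genes. *mRpL18*, which binds the 5S rRNA in bacteria, had 22.5 CPM in the ZI197 stress library and 27.6 and 26.2 CPM in the ZI197 control libraries. On the log2 CPM scale its control mean was 4.75 in ZI197, while the other 11 lines lay between 3.43 and 3.88. The difference among lines had an adjusted p of 1.05e-09 (edgeR). *mRpS23*, of the small subunit, was lowest in ZI197 (5.66 CPM under stress and 6.29 and 5.89 CPM in control libraries), with a range of 1.09 between C2D3 and ZI197 (adjusted p = 4.63e-05). *mRpS31*, a mitochondrial addition, was low in KL01, with 14.0 and 10.9 CPM in control libraries, while the line means of the other 11 lay between 4.35 and 4.52 against 3.63 in KL01 (range 0.89, adjusted p = 5.31e-05). In each of these genes the stress libraries of the line kept the same position as its control libraries.

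In the other wide-ranging genes the spread was shared by more lines. *mRpL34* had the widest range of line means, 1.42 between ZI254 and M12N3 (adjusted p = 0.00352). *mRpL39* was highest in ZI254, ZI418, and ZI273 (range 0.85, adjusted p = 1.11e-05), and *mRpS6* in ZI197 and KL02 (range 0.82, adjusted p = 1.04e-05). *mRpS24* was highest in ZI254 (range 0.81, adjusted p = 0.0130), a call that was lost without either of its ZI254 control libraries (adjusted p of up to 0.115). *mRpS21* was lowest in KL01 (range 0.98, adjusted p = 0.0225), where the control libraries had 12.8 and 8.01 CPM, and the call was lost without KL01 control replicate 2 (adjusted p = 0.206).

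**Figure D5:**
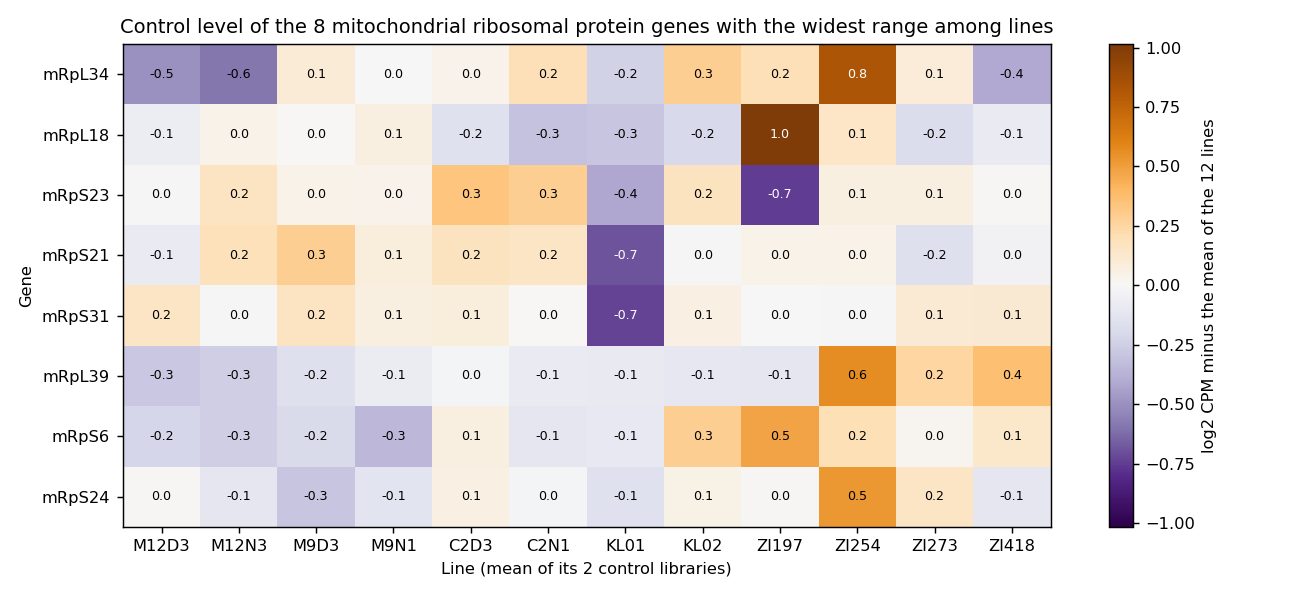
Control level of the 8 genes with the widest range among the genes that differed between lines (rows), in the 12 lines (columns). Each cell is the mean log2 CPM of the 2 control libraries of a line minus the mean of the 12 lines. *mRpL18* stands out in ZI197 and *mRpS31* in KL01.

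The deletion line was compared with the nondeletion line of each background to find out whether the *MtnA* genotype went along with these genes. In the 3 nearly isogenic backgrounds no gene of the family was called. The paper reports that the M9 pair kept far more genetic differences than the M12 and C2 pairs. In controls 0 of 72 were called in M12, M9, and C2, against 0.1%, 2.28%, and 0.232% of all genes, and the edgeR test gave 6, 2, and 0 genes at an unadjusted p below 0.05. Under stress 0 of 72 were called, against 8%, 1.97%, and 0.204% of all genes, with 8, 30, and 0 genes at an unadjusted p below 0.05. DESeq2 was also run, and over the 4 backgrounds together it called 10 genes in controls and 3 under stress, all of them in KL. The M9 stress comparison, M9D3 over M9N1, had a median log2FC of -0.32 over the 72 genes with 70 below 0, against -0.03 for all genes, and it rested on 1 M9N1 library. With the other M9N1 stress library left out instead, only the library far from the other stress libraries stood for M9N1 stress. The median of the 72 genes was then 0.03, against -0.04 for all genes. With all 48 libraries it was -0.13 with 0 of 72 called, while 30 of 11213 genes were called. The direction of the M9 stress comparison thus depended on the M9N1 library. In M9 controls the median was -0.03.

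In the Malaysian background, whose lines are not isogenic, 8 genes were lower in KL01 than in KL02 among controls and 0 were higher, against 5.47% of all genes lower. The smallest adjusted p was that of *mRpL20*, counterpart of an assembly protein of the bacterial large subunit, with 13.3 and 11 CPM in KL01 and 21 and 20.9 CPM in KL02 controls (log2FC -0.81 ± 0.13, adjusted p = 0.00617). *mRpS31* followed with 14.0 and 10.9 CPM in KL01 and 21.3 and 21.4 CPM in KL02 controls (log2FC -0.80 ± 0.14, adjusted p = 0.00994), and *mRpL30* with 21.5 and 19.8 CPM in KL01 and 32.6 and 29.1 CPM in KL02 controls (log2FC -0.60 ± 0.11, adjusted p = 0.0116). The lines did not overlap in any of these genes. The count was 16 without KL01 control replicate 1, 1 without KL02 control replicate 1, 2 without KL02 control replicate 2, and 5 to 8 without any of the other 5 libraries of the background.

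Under stress 2 genes were lower in KL01 than in KL02 and 1 was higher, against 8.13% and 13.6% of all genes. *mRpS31* was again lower, with 16.1 and 13.9 CPM in KL01 and 22.9 and 21.7 CPM in KL02 stress libraries (log2FC -0.57 ± 0.14, adjusted p = 0.0231). *mRpL28* was lower as well, with 51.1 and 51.4 CPM in KL01 and 64.7 and 65.3 CPM in KL02 stress libraries (log2FC -0.33 ± 0.09, adjusted p = 0.0317). *mRpL32*, whose maturation by a mitochondrial protease is needed for ribosome assembly in yeast and mammals, was higher, with 9.22 and 10.8 CPM in KL01 and 6.58 and 7.07 CPM in KL02 stress libraries (log2FC 0.56 ± 0.14, adjusted p = 0.0267). All 3 calls were lost when any of the 4 KL stress libraries was left out, and that of *mRpL28* also without either KL02 control library. *mRpS31* and *mRpL28* were called in both KL comparisons.

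Whether the response itself differed was tested in several ways. For genotype by treatment over the 8 lines outside Zambia, 0 of 72 genes were called by edgeR and by DESeq2, against 0.159% of all genes, and 4 had an unadjusted p below 0.05. The smallest adjusted p were those of *mRpL35* (difference in log2FC, deletion minus nondeletion, -0.23 ± 0.10, adjusted p = 0.315), *mRpS30* (-0.18 ± 0.08, adjusted p = 0.337), and *mRpL51* (-0.20 ± 0.10, adjusted p = 0.370). Within single backgrounds, a comparison added after the data had been seen, 0 of 72 were called in M12, M9, C2, and KL, against 0.0822%, 0.15%, 0%, and 1.23% of all genes, with 4, 11, 0, and 7 genes at an unadjusted p below 0.05 in edgeR. The median difference was -0.30 in M9 with 71 of 72 genes below 0, which rests on the same M9N1 stress library and was not computed with the other, and 0.17 in KL with 13 of 72 below 0, and it was -0.001 in M12 and -0.01 in C2. For Zambian lines against all others, 0 of 72 genes were called by edgeR and by DESeq2, against 2.41% of all genes, and 8 had an unadjusted p below 0.05. The leading genes were *mRpS17* (difference in log2FC, Zambian minus other lines, -0.21 ± 0.08, adjusted p = 0.202), *mRpL19* (-0.20 ± 0.08, adjusted p = 0.257), and *mRpL15* (-0.18 ± 0.08, adjusted p = 0.262).

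The test for any difference in response among the 12 lines called 2 of the 72 genes, against 9.66% of all genes. *mRpL32* (adjusted p = 0.0164) had log2FC of 0.44 in M9N1 and 0.32 in KL01, and of -0.46 in KL02, -0.46 in ZI197, and -0.43 in ZI254. In M9N1 it had 12.4 CPM under stress and 9.08 and 8.92 CPM in control libraries, and in KL02 it had 6.58 and 7.07 CPM under stress and 9.18 and 9.16 CPM in control libraries. The log2FC thus had opposite signs between lines, although *mRpL32* was called lower in 0 and higher in 0 single lines. *mRpL16*, counterpart of a protein next to the peptidyl transferase center, had its lowest log2FC in M9D3 (-0.34) and its highest in ZI418 (0.32), with an adjusted p of 0.0425. Its call was lost in 32 of 44 fits without 1 library (adjusted p of up to 0.0895). M9N1, ZI197, and ZI418 had 1 stress library each, and none of the 44 fits left these out. The next genes were *mRpL20* (adjusted p = 0.0584), *mRpS21* (0.0805), and *mRpS18A* (0.112), each of which had its highest log2FC in KL01, at 0.29 for *mRpL20*, 0.70 for *mRpS21*, and 0.43 for *mRpS18A*. DESeq2 called 6 of the 72 genes, among them these 3, while it called 2648 of all 13860 genes.

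The neighbouring pathways were read from lists in the fit of treatment alone over all lines. In this fit 26.2% of all tested genes were lower and 27.3% were higher. *bonsai*, the S15 protein of the small subunit, had 16.3 ± 1.28 CPM in stress and 19.3 ± 1.74 CPM in control libraries (SD, n = 23 and 24), with a log2FC of -0.25 ± 0.04 (adjusted p = 9.84e-08). *tko*, the S12 protein of the decoding site, had 16.7 ± 1.94 CPM in stress and 18.9 ± 2.79 CPM in control libraries, with a log2FC of -0.18 ± 0.06 (adjusted p = 0.00656). Of the 9 factors that work on the mitochondrial ribosome 5 were lower and 0 were higher (median log2FC -0.14). The lower ones included *mEFTu1*, which delivers the aminoacyl-tRNA (log2FC -0.31), *mEFG1*, which drives translocation (-0.29), and the recycling factor *mRRF1* (-0.30). Of those that did not pass, the initiation factor *mIF2* had a log2FC of -0.01 (adjusted p = 0.954), *mEFTu2* of -0.08, the release factor *mRF1* of 0.02, and *mRRF2* of 0.10. Of the mitochondrial aminoacyl-tRNA synthetases 8 of 16 were lower and 0 higher (median log2FC -0.08), led by *TrpRS-m* (-0.53) and *SerRS-m* (-0.39). Of 15 genes of mitochondrial transcription and RNA handling 6 were lower and 3 were higher, with the mitochondrial RNA polymerase *PolrMT* among the higher (log2FC 0.30) and the DNA-packaging factor *TFAM* among the lower (-0.18).

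The lists at either end of the pathway differed from each other. That of the respiratory chain was mostly lower under stress, as the family was. Of the 13 mRNAs of the mitochondrial genome, which this ribosome translates, 0 passed the edgeR test over all lines (median log2FC -0.01, summed level 35150 to 75490 CPM in stress and 29950 to 66250 CPM in control libraries). Of the nuclear genes of the respiratory chain, whose products join them, 53 of 71 were lower and 2 were higher (median log2FC -0.21). Of the cytosolic ribosomal protein genes 1 of 87 was lower and 40 were higher (median log2FC 0.16). Of all tested genes 26.2% were lower and 27.3% were higher. By line, the respiratory chain median was -0.46 in M9D3, -0.44 in ZI197, -0.37 in C2N1, and -0.34 in C2D3, it was -0.28 in ZI273, -0.26 in KL02, and -0.18 in ZI254, and it was -0.01 in KL01 and in ZI418, -0.09 in M12D3, -0.12 in M12N3, and -0.13 in M9N1. The lines with the lower medians of the family had the lower medians here as well. The same libraries stand behind each list. The muscle markers had line medians of -0.78 in ZI197, -0.73 in C2N1, -0.48 in C2D3, -0.44 in KL02, -0.40 in M9D3, and -0.34 in M9N1, of -0.16 in M12N3, -0.12 in ZI273, -0.11 in ZI254, and -0.04 in M12D3, and of 0.10 in KL01 and 0.38 in ZI418. They were low together with the family in ZI197, C2N1, C2D3, KL02, and M9D3, and near or above 0 like it in M12D3, KL01, and ZI418. In M12N3 and in M9N1, which had 1 stress library, they were below 0 while the median of the family was near 0. In ZI254 and ZI273 they were closer to 0, while that of the family was below it. Their part in the differences between lines was not tested.

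The genes most like *mRpS30* across libraries were few among its own family. Within the 23 stress libraries the highest Pearson r of log2 CPM were 0.50 with *mRpS33*, 0.49 with *mRpL12*, and 0.38 with *mRpL10*, and within the 24 control libraries 0.57 with *mRpL19*. The median r with the other genes of the family was -0.13 in stress and -0.21 in control libraries. The most alike genes of the whole table were *disco-r* (0.83), *sli* (0.82), and *CG31538* (0.82) in stress, and *Sin1* (0.83), *Grip91* (0.77), and *Noc3* (0.75) in control libraries. The points share lines and library scaling, and these values are a description of likeness over the libraries only.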

How the data were processed

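The deposited values are raw read counts per gene and were not normalised by the authors. The authors mapped paired-end reads of poly-A libraries to a FlyBase transcriptome with NextGenMap. The counting program and its use of strand are not given in the sources used here. Genes were named through FlyBase IDs (13908 of 13957) or CG numbers (43), and 6 kept their IDs. Positions came from the Release 6 annotation.

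Counts were tested in R 4.3.3 with edgeR 4.0.16 (filterByExpr, TMM, quasi-likelihood F test, two-sided), a Benjamini-Hochberg adjustment that took in every tested gene, and a threshold of 0.05. SEs were derived from the log2 fold change and its F value. The response over all lines had treatment as its only term. Responses and deletion contrasts of a line came from a fit of 1 group per line and treatment within a background (the Zambian lines together), and tests among lines from such a fit over 47 libraries. A prior count of 2 went into log2 CPM. The study left out an M9N1 stress library without giving its number. It was taken as the one farther from the mean of the other stress libraries on PC1 and PC2 of the 500 most variable genes (DESeq2 1.42.0 variance-stabilised counts). Replicates were separate pools of heads, and no pair of libraries was the same within sampling noise. The members and the lists were chosen with earlier results of these data known. Genes named were the 10 smallest adjusted p, the 5 largest decreases and every increase of the response, the 8 widest ranges among control lines, the leading genes of each other test, and the extremes of level. Genes called in single lines were chosen after their values were seen. The fits were tested on simulated counts. Alternatives were DESeq2, RLE size factors, no filter, all 48 libraries, the other M9N1 library, a threshold of 0.01, line or replicate number as a block, 1 fit over all lines, subsets of lines, and each library left out.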

Additional observations from a re-analysis of the deposited data

Results flagged for a closer look

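The response to MSB differed among the 12 lines by a test of the difference itself (edgeR quasi-likelihood F test of line by treatment with 11 degrees of freedom, adjusted over all genes tested) in *mRpL32*, with an adjusted p of 0.0164, and in *mRpL16*, with an adjusted p of 0.0425. *mRpL32* was called in each of the 44 fits without 1 library, with an adjusted p of at most 0.0332, and *mRpL16* lost its call in 32 of them. None of these fits left out the only stress library of M9N1, ZI197, or ZI418. The log2FC of *mRpL32* was highest in M9N1 and that of *mRpL16* was highest in ZI418. No line and treatment had more than 3 libraries, so that single libraries could not be examined as outliers.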

How the results depend on the processing

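Genes called lower over all lines numbered 39 (34 to 43 without 1 library), and 25 at a threshold of 0.01 and 23 without the Zambian lines. Genes called higher numbered 2 (1 to 3 without 1 library), and 1 at a threshold of 0.01, without a filter, without M9N1, ZI197, and ZI418, and without KL01, the last 2 settings being chosen after seeing the data. Calls lower summed over the 12 lines were 70 (51 to 78 without 1 library), 13 at 0.01, and 130 in 1 fit over all lines, which has more residual degrees of freedom. Calls higher were 6 (4 to 16), and 1 at 0.01. Deletion calls in controls were 8 (1 to 16), 2 at 0.01, and 16 in 1 fit over all lines, and under stress 3 (0 to 4), 0 at 0.01, and 9 with the other M9N1 stress library left out. The other M9N1 library also gave 1 call for Zambian by treatment, whose count was otherwise 0 (0 to 2), and 11 for line by treatment, whose count was otherwise 2 (1 to 9), with 0 at 0.01, 1 without a filter, and 6 by DESeq2. With the other M9N1 library left out, M9N1 stress was represented only by the library that lay 55.0 units from the mean of the other stress libraries. Genotype by treatment stayed at 0 in all settings run. Differences among control lines gave 37 (30 to 42), and 21 at 0.01. The subunit ratio difference was -0.06 (-0.06 to -0.05) and 0.05 with medians in place of sums. Where not given, the cause was not tested.

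With the replicate number as a replicate block, calls lower summed over lines were 35 against 70, while the counts over all lines (48 lower and 2 higher), of calls higher by line (9), of deletion contrasts (9 in controls and 3 under stress), and of genotype by treatment (0) stayed within 1.5 times. The block was not run for the other tests. Whether libraries with the same replicate number shared a batch is not known. The correlation of their deviations ran from -0.09 to 0.22 in 9 lines, which does not settle it. For the 37 results on single genes, the settings other than leaving out 1 library turned 0 directions, ended 5 calls, made 7 new ones, and left 251 values on their side of the threshold. Tests that need every line could not be run without the only stress library of M9N1, ZI197, or ZI418.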

Other observations

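The mitochondrial ribosomal protein genes often start next to another gene. In 56 of the 73 (76.7%) a neighbour on the opposite strand begins within 1000 bases of the start in the annotation, against 33.9% of all genes of the table. *mRpL51* starts 31 bases from *Uba4*, *mRpL18* 20 bases from *Taz*, and *mRpS28* 42 bases from *CG5323*. The genes lie on every large chromosome arm, with 21 on 3R, 17 on 3L, 12 on 2L, 12 on 2R, and 11 on the X chromosome. These are positions only, and their relation to expression was not tested.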
